A study of Mus musculus with 6 samples.

Results

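A set of 10 lipid droplet genes was followed in mouse liver: 4 perilipin coat genes (Plin2, Plin3, Plin4 and Plin5), 3 CIDE genes (Cidea, Cideb and Cidec), the triglyceride lipase gene Pnpla2, its inhibitor gene G0s2 and the monoglyceride lipase gene Mgll. They were matched by single gene symbol to the platform annotation, which gave 14 probe sets for the 10 genes, out of 12393 genes measured. The probe set with the highest mean over the 6 arrays led for each gene. Whole liver RNA was taken from 6 Ppara KO mice (background strain C57), all 1 month old: 3 were TFEB-injected, with an adenoviral vector given to the liver, and 3 were not-injected. Each array is 1 mouse. Every mouse of both groups carries the Ppara label, the comparison animals received no injection, and no group with another vector is described, so TFEB and the adenoviral injection itself cannot be told apart.

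A lipid droplet is a core of triglyceride and sterol ester inside a shell of phospholipid and protein. Perilipins coat that shell and limit or direct access of lipases to the core, and CIDE proteins promote transfer of lipid between droplets, which lets droplets grow. Lipolysis runs in steps: adipose triglyceride lipase, the product of Pnpla2, removes the first fatty acid from a triglyceride, later lipases act on the diglyceride, and the product of Mgll splits the monoglyceride. In liver the fatty acids released this way feed oxidation and act as ligands for the nuclear receptor encoded by Ppara. TFEB is a transcription factor known for switching on lysosomal and autophagy genes, and autophagy of droplets is a further route of lipid breakdown.

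The Tfeb probe set gave 7.63, 7.46 and 7.69 in the TFEB-injected livers, against 7.52, 7.63 and 7.51 in the not-injected livers, on the deposited log2 scale of RMA (a method that corrects background, normalizes between arrays and summarises probes). Its change of 0.04 ± 0.07 (SE) had an adjusted p of 0.777 in limma, the linear model fitted across all genes. The Ppara probe set gave 9.08, 9.04 and 9.12 against 8.98, 8.87 and 9.01 (0.13 ± 0.05, adjusted p = 0.149 in limma). The labels give neither the species of the TFEB in the vector nor the deleted part of Ppara, so neither probe set checks the labels. Of 7 hepatocyte markers 0 passed the test (limma, adjusted p under 0.05; 0 also at an unadjusted p under 0.05), with Alb, for albumin, at 14.95, 14.95 and 14.94 in injected livers and at 15.02, 15.01 and 15.03 in not-injected livers.

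In the TFEB-injected livers 5 of the 10 genes rose and 1 fell. Those that rose were Plin4, Plin3, Plin2, Cidec and Pnpla2, and the one that fell was Cideb; Plin5, Cidea, G0s2 and Mgll did not pass the threshold of 0.05. Of all 12393 genes, 9.99% rose and 7.92% fell in the same test, and 17.9% passed in either direction. In whole liver RNA a change in the number of cells of a type and a change in RNA per cell cannot be told apart. The median log2 change of the 10 genes was 0.38, against -0.01 over all genes. All 3 injected livers lay above all 3 not-injected livers for 6 of the 10 genes and below them for 1, against 18.2% and 18.9% of all genes, or 7 of 10 against 37.1% for both directions together. The rises of the 3 coat genes Plin2, Plin3 and Plin4 passed whichever array was left out. Only 3 of the rises remained without TFEB-injected replicate 2 and likewise without not-injected replicate 1 or 2, and the fall of Cideb was lost without any 1 array other than TFEB-injected replicate 3.

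**Figure D1:**
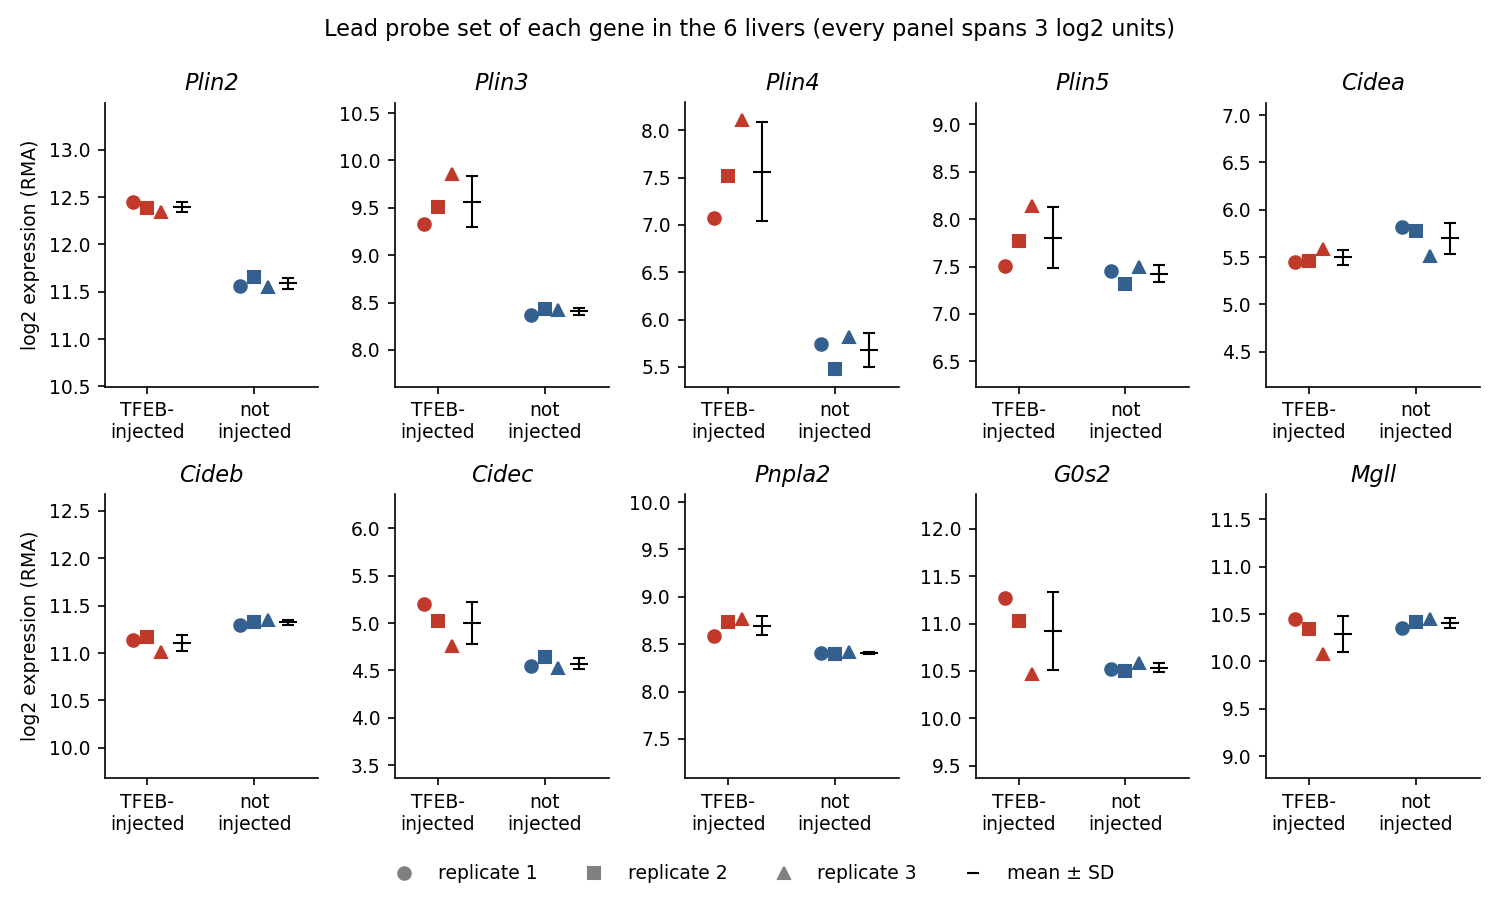
Log2 expression (RMA) of the lead probe set of each of the 10 genes in the 3 TFEB-injected livers (left, red) and the 3 not-injected livers (right, blue), with marker shapes for replicate numbers and the mean ± SD beside each group. Every panel spans the same log2 range; the injected livers stand clear above the others for Plin2, Plin3 and Plin4, and spread widely for G0s2.

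Plin2 encodes the main perilipin of the hepatocyte, a protein that is degraded when it is not bound to a droplet. It gave 12.44, 12.39 and 12.34 in the injected livers, against 11.56, 11.65 and 11.55 in the not-injected livers. All 3 injected livers were close together and lay at least 0.69 above the highest not-injected liver. The rise was 1.75-fold (log2 change 0.80 ± 0.05 SE, limma adjusted p = 1.51e-04). Among the members it had the smallest p, with 1.79% of all genes changing by more.

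Plin3 encodes a perilipin found in the cytosol and on small, newly formed droplets in most tissues. It gave 9.33, 9.51 and 9.86 in the injected livers, against 8.36, 8.43 and 8.43 in the not-injected livers. The lowest injected liver was 0.90 above the highest not-injected one, and injected replicate 3 stood highest. The rise was 2.24-fold (1.16 ± 0.12 SE, limma adjusted p = 9.77e-04).

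Plin4 encodes a perilipin with a long repeat region that coats nascent droplets and is best known from white fat and muscle. It gave 7.07, 7.51 and 8.11 in the injected livers, against 5.74, 5.48 and 5.82 in the not-injected livers. This was the largest change among the 10 genes, 3.69-fold (1.88 ± 0.24 SE, limma adjusted p = 0.00196), and ranked 32 by size among all 12393 genes. The injected livers were spread widely, yet the lowest of them was 1.25 above the highest not-injected liver. The fold starts from a dim signal: the not-injected mean was 5.68, near that of Cidea (5.70), whose probe set is called dim below.

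Plin5 encodes a perilipin of oxidative tissues that tethers droplets to mitochondria. It gave 7.50, 7.77 and 8.14 in the injected livers, against 7.45, 7.32 and 7.49 in the not-injected livers. Injected replicate 1 lay only 0.0092 above the highest not-injected liver, so the groups were barely apart. The log2 change of 0.38 ± 0.15 (SE; 95% interval 0.0378 to 0.729) did not pass (limma, adjusted p = 0.123). Without injected replicate 1 it was 0.54 and passed (limma, adjusted p = 0.0219), and without injected replicate 3 it was 0.21 (limma, adjusted p = 0.155).

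**Figure D2:**
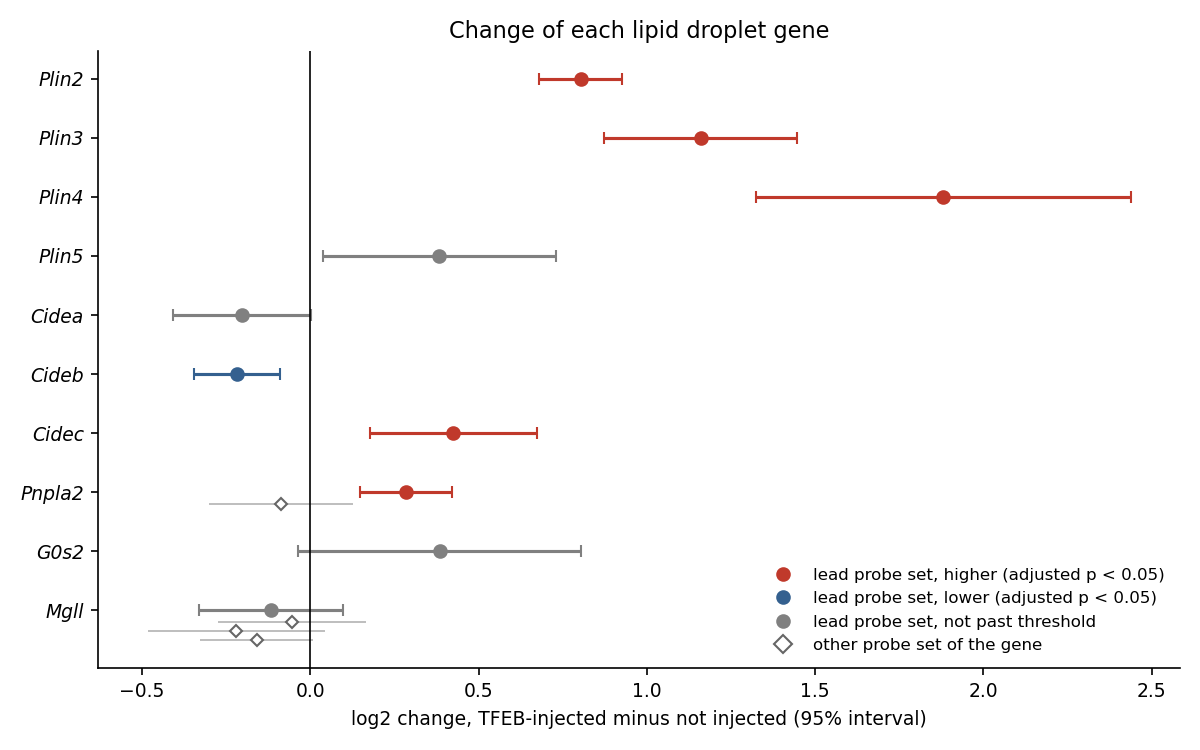
Log2 change (TFEB-injected minus not-injected) of each gene with its 95% interval from limma; filled circles are lead probe sets, coloured by whether they passed the threshold, and open diamonds are the other probe sets of Pnpla2 and Mgll. The changes of Plin2, Plin3 and Plin4 lie to the right of all others, and the second Pnpla2 probe set lies on the other side of 0 from the lead.

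The sequences around annotated starts of Plin2, Plin3 and Plin4, the genes that rose most, are shown with that of Mgll, which did not pass and which holds the same short motif as Plin2. They are RefSeq sequences of build GRCm38.p6, 250 bases before to 50 after the start, read 5′ to 3′ on the gene's strand: Plin2 at chr4:86670010-86670309 (minus), Plin3 at chr17:56290462-56290761 (minus), Plin4 at chr17:56109733-56110032 (minus) and Mgll at chr6:88724162-88724461 (plus). The start is that of the RefSeq promoter table; for Plin2 and Plin4 it lies inside the full span that the RefSeq gene table gives. Capitals mark matches to the motifs searched.
Plin2: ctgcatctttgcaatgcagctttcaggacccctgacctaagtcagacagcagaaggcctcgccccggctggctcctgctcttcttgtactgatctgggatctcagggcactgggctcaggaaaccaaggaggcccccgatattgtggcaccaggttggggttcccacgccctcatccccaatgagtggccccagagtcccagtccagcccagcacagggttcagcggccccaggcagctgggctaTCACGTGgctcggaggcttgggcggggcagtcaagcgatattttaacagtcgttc
Plin3: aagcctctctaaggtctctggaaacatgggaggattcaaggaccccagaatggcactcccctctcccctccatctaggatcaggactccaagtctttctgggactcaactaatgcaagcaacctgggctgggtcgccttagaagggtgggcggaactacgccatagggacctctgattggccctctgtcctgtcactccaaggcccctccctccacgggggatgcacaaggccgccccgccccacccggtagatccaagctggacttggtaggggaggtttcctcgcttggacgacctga
Plin4: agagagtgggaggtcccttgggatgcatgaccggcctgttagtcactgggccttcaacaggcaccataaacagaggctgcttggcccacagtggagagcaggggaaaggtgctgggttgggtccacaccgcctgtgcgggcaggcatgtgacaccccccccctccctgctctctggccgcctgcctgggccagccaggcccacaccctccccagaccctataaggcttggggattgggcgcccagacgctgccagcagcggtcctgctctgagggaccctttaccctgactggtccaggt
Mgll: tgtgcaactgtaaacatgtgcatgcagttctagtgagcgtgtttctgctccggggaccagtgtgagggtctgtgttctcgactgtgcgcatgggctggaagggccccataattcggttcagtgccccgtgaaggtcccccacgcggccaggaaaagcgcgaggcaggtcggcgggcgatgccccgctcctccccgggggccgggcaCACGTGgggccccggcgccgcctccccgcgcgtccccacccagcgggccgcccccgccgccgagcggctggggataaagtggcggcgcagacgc
The motifs, searched on both strands, were CACGTG (the E-box core that TFEB is known to bind), TCACGTG (a longer form that overlaps it), the direct repeat read by PPAR dimers (AGGTCA copies with 1 base between them) and TTGCGCAA (a C/EBP core). Windows were found for 9 of the 10 genes, 12 in all; Cidea had none. CACGTG was in a window of Plin2 and of Mgll, 2 of 9 genes, against 8.09% of 27025 genes (7.15% of 32851 windows). The match in Plin2 begins 4 bases before that start and that in Mgll 44 bases before it. TCACGTG was in the Plin2 window, 1 of 9 genes, against 4.29% of all genes. The direct repeat and TTGCGCAA were in windows of 0 of the 9 genes, and of 0.0481% and 0.207% of all genes. Plin3 and Plin4 have no match in these windows. Whether any of these motifs goes with a change was not tested.

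The 3 CIDE genes did not move together. Cideb, whose product is the CIDE protein of normal hepatocytes and serves lipoprotein loading as well as droplet fusion, gave 11.13, 11.17 and 11.01 in the injected livers, against 11.30, 11.33 and 11.35 in the not-injected livers. All 3 injected livers lay below all 3 not-injected ones, by at least 0.13, in a probe set whose name ends in _s_at, which can also detect related transcripts. The fall was small, 1.16-fold (-0.22 ± 0.05 SE, limma adjusted p = 0.0323). The call was lost without injected replicate 1 or 2 or not-injected replicate 1, 2 or 3 (limma, adjusted p up to 0.0960).

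Cidec, whose product drives the growth of large droplets in fat and in fatty liver, gave 5.20, 5.03 and 4.76 in the injected livers, against 4.55, 4.64 and 4.52 in the not-injected livers. The probe set is dim: its mean was at percentile 10.8 of all lead probe sets, and RMA compresses changes at such signals. The groups did not overlap, with injected replicate 1 highest and replicate 3 only 0.12 above the highest not-injected liver. The rise of 1.34-fold (0.43 ± 0.11 SE, limma adjusted p = 0.0314) was lost without injected replicate 2 or not-injected replicate 1, 2 or 3 (limma, adjusted p up to 0.105).

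Cidea, known from brown fat and from fatty liver, gave 5.45, 5.46 and 5.59 in the injected livers, against 5.82, 5.77 and 5.51 in the not-injected livers. Not-injected replicate 3 lay inside the range of the injected livers, so the groups overlapped, and this probe set too is dim (percentile 21.8). The log2 change was -0.20 ± 0.09 (SE; 95% interval -0.407 to 0.00272; limma, adjusted p = 0.164). Without not-injected replicate 3 it was -0.30 and passed (limma, adjusted p = 0.0355).

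Pnpla2, for the lipase that starts triglyceride breakdown, gave 8.58, 8.73 and 8.77 in the injected livers, against 8.41, 8.40 and 8.42 in the not-injected livers. The not-injected livers were almost equal and all 3 injected livers lay above them, by at least 0.16. The rise was 1.22-fold (0.28 ± 0.06 SE, limma adjusted p = 0.0157). It was lost without injected replicate 2 or not-injected replicate 1 or 2 (limma, adjusted p up to 0.0709). A second Pnpla2 probe set, much dimmer, gave 4.41, 4.55 and 4.77 in the injected livers, against 4.60, 4.73 and 4.66 in the not-injected livers, with no separation (-0.09 ± 0.09 SE, limma adjusted p = 0.585 over all probe sets). With the mean of both probe sets the Pnpla2 change was 0.10 and did not pass (limma, adjusted p = 0.394).

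G0s2, for the small protein that binds the Pnpla2 lipase and blocks it, differed more between injected livers than any other member but Plin4. It gave 11.27, 11.02 and 10.47 in the injected livers, against 10.52, 10.50 and 10.59 in the not-injected livers. Injected replicates 1 and 2 lay above all 3 not-injected livers and injected replicate 3 below all 3 of them. The SD was 0.41 in the injected group and 0.04 in the not-injected group, a ratio of 9.19. The median ratio over all genes was 1.24. Pnpla2 (9.70) and Plin3 (7.41), which both rose, also had high ratios. Plin2 (0.92) and Cidea (0.48) were under 1, and the other members lay between 2.91 and 3.84. The log2 change of G0s2, 0.38 ± 0.18 (SE, 95% interval -0.0373 to 0.806), did not pass (limma, adjusted p = 0.194). Without injected replicate 3 it was 0.61 and passed (limma, adjusted p = 0.00298), and without injected replicate 1 it was 0.21 (limma, adjusted p = 0.397).

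Mgll, for the lipase of the last step, gave 10.45, 10.34 and 10.08 in the injected livers, against 10.35, 10.41 and 10.45 in the not-injected livers. As for Cideb, the name of this lead probe set ends in _s_at, so it can also detect related transcripts. The groups overlapped, with injected replicate 3 the lowest of the 6. The log2 change was -0.12 ± 0.09 (SE; 95% interval -0.331 to 0.0969; limma, adjusted p = 0.437). It was -0.01 without injected replicate 3 and -0.20 without injected replicate 1, and passed in neither case. The 3 further Mgll probe sets gave changes of -0.05, -0.22 and -0.16, all on the same side of 0, and 0 of the 4 passed (limma over all probe sets; 0 at an unadjusted p under 0.05).

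**Figure D3:**
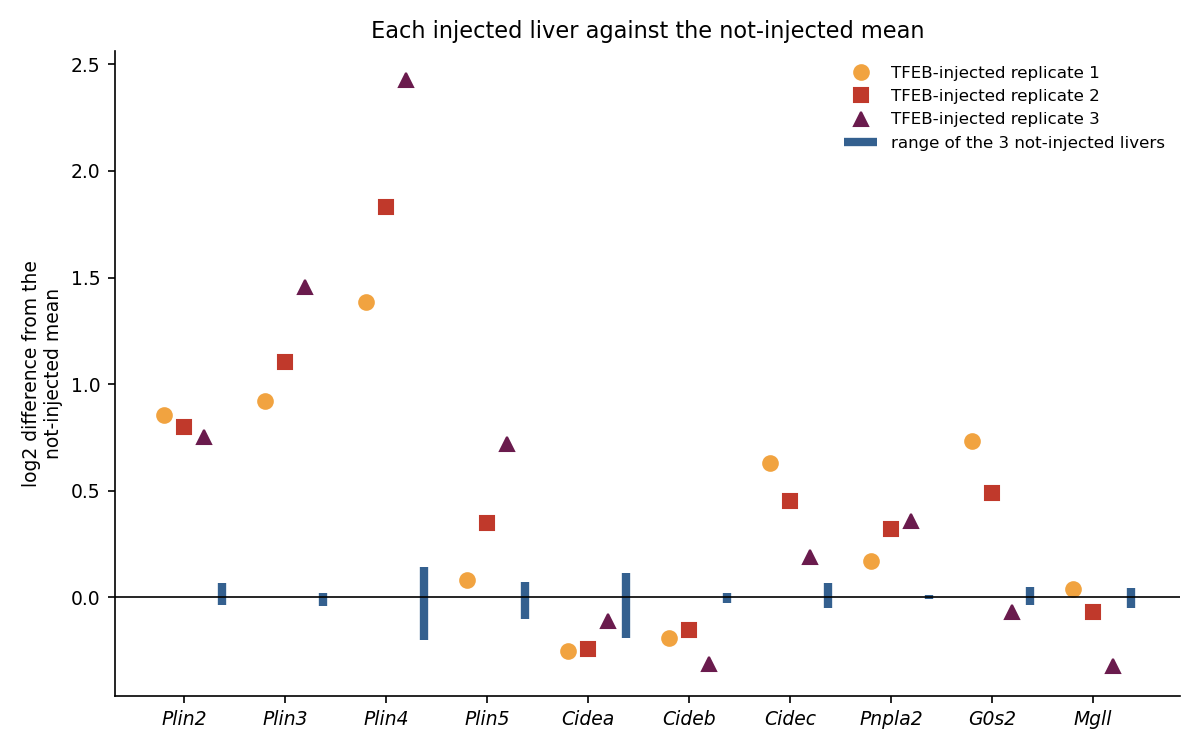
Log2 difference of each TFEB-injected liver from the not-injected mean for the 10 genes, with the range of the 3 not-injected livers as a blue bar. Replicate 3 is the highest injected liver for Plin3, Plin4, Plin5, Cidea and Pnpla2 and the lowest for Plin2, Cideb, Cidec, G0s2 and Mgll.

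The injected livers differed among themselves in a way that split the members. Relative to the not-injected mean, injected replicate 3 was at 1.45 for Plin3, 2.43 for Plin4 and 0.72 for Plin5, while injected replicate 1 was at 0.92, 1.39 and 0.08 for the same genes. The other way round, injected replicate 1 was at 0.73 for G0s2 and 0.63 for Cidec, while injected replicate 3 was at -0.07 and 0.19. Plin2 stayed within a narrow band in all 3, at 0.86, 0.80 and 0.75. Injected replicate 3 was the highest of the injected livers for 5 of the 10 genes and replicate 1 for 4. Over all genes these shares were 44.3% and 33.8%, so the split itself is close to that of all genes.

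Whether partners changed by unequal amounts was asked within each array, for 5 pairs of members, with an exact two-sided permutation test over the 6 arrays whose smallest possible p is 0.10. The lipase Pnpla2 and its inhibitor G0s2 changed by amounts that could not be told apart, with a difference of changes of -0.10 ± 0.29 (SE; exact permutation p = 0.70). Its sign turned to 0.13 without injected replicate 1. Cidec changed by 0.64 ± 0.10 more than Cideb and the within-array differences of the groups did not overlap (exact permutation p = 0.10, adjusted 0.167 over the 5 pairs). The change of Plin2 minus that of Plin3 was -0.36 ± 0.19 (exact permutation p = 0.10, adjusted 0.167). Its groups were barely apart, with a highest injected difference of 3.116 and a lowest not-injected one of 3.126. With another normalization of the arrays (cyclic loess) it was -0.35 (exact permutation p = 0.20). The change of Mgll minus that of Pnpla2 was -0.40 ± 0.16 (exact permutation p = 0.10, adjusted 0.167). With the mean of each gene's probe sets it was -0.24 and the groups overlapped (exact permutation p = 0.40). Plin5 changed by -0.42 ± 0.23 relative to Plin2, with overlap (exact permutation p = 0.20, adjusted 0.25). With 3 arrays a group none of these can pass 0.05.

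Other proteins of the droplet surface and other lipases were mixed. Of a list of 30 such genes, 22 were measured, of which 2 rose and 4 fell, where 9.99% of all genes rose and 7.92% fell. The perilipin gene Plin1 was among those not measured. The median log2 change of the list was -0.02, against 0.38 for the 10 members and -0.01 for all genes. The carboxylesterase gene Ces1g, for a liver esterase of the endoplasmic reticulum, gave 9.96, 9.93 and 9.87 in injected livers, against 10.96, 11.04 and 11.03 in not-injected livers. It fell 2.13-fold (-1.09 ± 0.05 SE, limma adjusted p = 4.59e-05), and its groups were far apart. Its relative Ces1d, for a triglyceride hydrolase of hepatocytes, fell by 0.33 ± 0.05 on the log2 scale (limma, adjusted p = 0.0047). Esterases of this family are close in sequence, so the probe sets may share signal.

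The remaining falls were in Fitm1 (-0.30 ± 0.07), for a membrane protein of droplet formation, and Aup1 (-0.20 ± 0.05), for a droplet protein of the ubiquitin pathway. The Fitm1 call was lost without injected replicate 1 or not-injected replicate 1 or 3 (limma, adjusted p up to 0.0842), and the Aup1 call without injected replicate 2 or any not-injected array (limma, adjusted p up to 0.0761). Pcyt1a, for the enzyme that sets the supply of phosphatidylcholine to growing droplets, rose by 0.43 ± 0.07. Pnpla8, for a phospholipase of the Pnpla family, rose by 0.20 ± 0.04, a call lost without injected replicate 2 or any not-injected array (limma, adjusted p up to 0.0662). Without injected replicate 1 the list had 4 rises, without injected replicate 2 or any not-injected array it had 1, and without not-injected replicate 1 or 3 it had 2 falls. Abhd5, for the activator of the Pnpla2 lipase, and Hilpda, for another of its inhibitors, were named after their values were seen. Abhd5 changed by 0.01 (95% interval -0.158 to 0.181) and Hilpda by 0.10 (-0.0296 to 0.238).

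**Figure D4:**
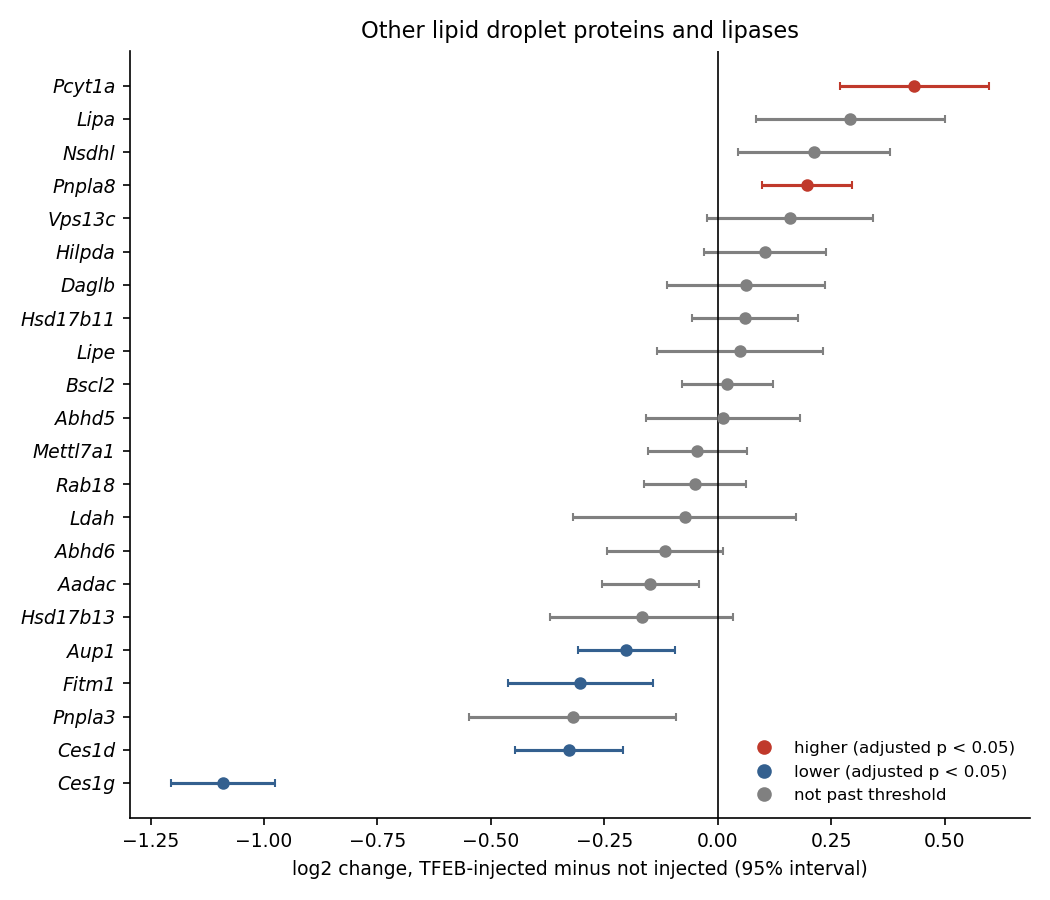
Log2 change (TFEB-injected minus not-injected) with 95% interval from limma for the 22 measured genes of the list of other droplet proteins and lipases, coloured by whether they passed the threshold. Ces1g stands alone at -1.09, and the rest lie between -0.33 and 0.43.

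Several of the members are best known from fat or muscle, and their levels were set beside markers of other cell types. As a base for the marker counts here and below, 9.99% of all genes rose and 7.92% fell. Of 7 white adipocyte markers 5 were measured, without Cfd and Plin1, and 0 passed (limma, 0 also at an unadjusted p under 0.05). Their summed linear signal was 22788 to 23200 in injected livers and 22899 to 23563 in not-injected livers. Nearly all of it came from Car3, which liver also expresses. Adipoq, for the fat hormone adiponectin, gave 3.81, 3.83 and 3.96 in injected livers and 3.83, 4.02 and 3.97 in not-injected livers, near the lowest signals on the arrays. Of 5 muscle markers 1 passed: Mb, for myoglobin, fell (-0.20 ± 0.05), a call lost without injected replicate 1 or 2 or not-injected replicate 1 or 3 (limma, adjusted p up to 0.0794). Their summed linear signal was 279 to 284 in injected livers and 291 to 313 in not-injected livers.

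Of 6 brown adipocyte markers, which include Cidea, 2 rose (Cox7a1 and Cox8b) and 1 fell (Elovl3, an elongase gene that liver also expresses, by 0.95 ± 0.05 on the log2 scale). Their summed linear signal was 3177 to 3730 in injected livers and 4472 to 4687 in not-injected livers, of which Elovl3 made up 56.6% to 72.5% in injected livers and 94.1% to 94.2% in not-injected livers. The other 5 markers summed to 873 to 1619 in injected livers and 259 to 275 in not-injected livers. Cox7a1 is a respiratory subunit gene of oxidative muscle and brown fat. It gave 8.53, 8.92 and 9.29 in injected livers, against 5.37, 5.53 and 5.34 in not-injected livers. Cox7a1 was thus highest in injected replicate 3, as were Plin3, Plin4, Plin5, Cidea and Pnpla2, and 59.0% of all genes that rose. Ucp1, the defining brown fat gene, was at 4.90, 4.76 and 4.83 in injected livers and 4.90, 4.98 and 5.04 in not-injected livers.

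Markers of macrophages, Kupffer cells included, also rose in part. Of 9 such markers 8 were measured, 5 rose and 0 fell, against 9.99% and 7.92% of all genes. Without injected replicate 3, 8 rose. The summed linear signal of the markers was 8953 to 10850 in injected livers and 6708 to 6942 in not-injected livers. Cd5l rose by 0.63 ± 0.05 (limma, adjusted p = 2.37e-04). Lyz2, for lysozyme, gave 10.90, 10.72 and 10.04 in injected livers, against 9.92, 9.84 and 9.86 in not-injected livers, and did not pass (limma, adjusted p = 0.0531). It was highest in injected replicate 1, as Plin2, Cidec, G0s2 and Mgll were. Injected replicate 1 was the highest injected liver for 5 of the 8 macrophage markers and replicate 3 for 1 of them. Among the members that rose, replicate 3 was the highest for Plin3, Plin4 and Pnpla2, and replicate 1 for Plin2 and Cidec. Of all genes that rose, replicate 3 was the highest for 59.0% and replicate 1 for 19.8%. Of 7 stellate cell markers 1 rose (Col3a1, 0.32 ± 0.05) and 2 fell (Lrat, -0.48 ± 0.10, and Reln, -0.19 ± 0.04). The falls numbered 0 without injected replicate 2 or not-injected replicate 2 or 3, and 1 without not-injected replicate 1. The summed linear signal of the 7 was 5934 to 6211 in injected livers and 6292 to 6402 in not-injected livers. The part of any of these cell types in the members' changes was not tested.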

How the data were processed

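Biotin-labelled liver RNA of 6 mice was hybridised to Affymetrix arrays, 1 array per mouse, per the labels' protocols. The deposited values are log2 expression levels made by the authors with RMA in the affy package, per the submitters' processing notes (tool versions: not given in the sources used here). Array medians lay between 6.92 and 6.93, and quantile normalization hides overall shifts in RNA content. The table holds 22690 probe sets, including 64 controls. By the platform annotation 20393 had 1 gene symbol, 691 several and 1606 none; the 20380 with 1 symbol that are no controls were used, for 12393 genes, and 0 symbols needed updating.

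Groups came from the sample titles. Changes are injected minus not-injected, fitted with lmFit and eBayes of limma 3.58.1 in R 4.3.3 over all 12393 genes, with 1 probe set per gene, Benjamini-Hochberg adjustment and a threshold of 0.05. "Rose" and "fell" are used of genes that passed. The test was checked on simulated data drawn with the same SD in both groups of a gene. Unequal spread between groups, such as that of G0s2, Pnpla2 and Plin3, was not covered. Replicates are labelled biological. The number of arrays limits the precision. Named genes are all 10 members, the called genes of the droplet list with the smallest p (up to 5 in each direction), Tfeb, Ppara, and the gene with the smallest p of each marker list; Lyz2, Ucp1, Car3, Cox8b, Elovl3, Lrat, Reln, Abhd5 and Hilpda were added after their values were seen, as were the marker counts with an array left out. The members and lists were chosen with earlier results of these data known. Plots used Python 3.11.15 and matplotlib 3.10.9.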

Additional observations from a re-analysis of the deposited data

How the results depend on the processing

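Plin2, Plin3 and Plin4 rose under every alternative tried (14 or 15 each; the smallest change was 0.78, 1.01 and 1.61), apart from the exact permutation test per gene, which cannot go below 0.10 here. No member changed sign under any of them. The count of members that rose (5) was 3 to 6 with an array left out, 3 after leaving out genes dimmer than the median, which removes Plin4, Cidea and Cidec, and 3 at an adjusted p under 0.01. The count that fell (1) was 0 to 1 with an array left out, 0 at 0.01, 0 without _x_at and _s_at probe sets, which removes Cideb, and 2 with array weights. Of other droplet genes, the count that rose (2) was 1 to 4 with an array left out, 1 at 0.01, 4 at 0.10, 4 with an intensity trend and robust prior and 5 with array weights; the count that fell (4) was 2 to 5, 2 at 0.01 and 7 with array weights. Over all genes, 1238 rose and 981 fell; with an array left out these were 722 to 1344 and 507 to 1065, at 0.01 they were 645 and 408, at 0.10 the falls were 1472, and with array weights they were 2717 and 3137. Array weights gave injected replicate 2 a weight of 16.26 and the other arrays 0.241 to 1.20, in an estimation that stopped before converging, and Plin5, Cidea and G0s2 passed under it. The difference of changes between Pnpla2 and G0s2 ranged from -0.36 to 0.13 with an array left out.

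Replicate numbers are shared by both groups. Deviations of same-numbered arrays correlated at 0.01, -0.13 and -0.11 across genes. These values show no pairing of the mice by number, but they cannot exclude one. With the replicate number as a block, Cideb had an adjusted p of 0.0819, the members that fell were 0, the other droplet genes that rose and fell were 1 and 2, and 610 of all genes fell; the other members kept their side of the threshold. The cause of these shifts was not tested.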

Other observations

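Plin4, Plin5 and Plin3 lie near each other on mouse chromosome 17 in the RefSeq gene table (GRCm38.p6), Plin4 and Plin5 as direct neighbours and Plin3 beyond 5 further genes that were measured. The genes named here were looked up after the values of the perilipins had been seen. Of those 5 (Lrg1, Sema6b, Tnfaip8l1, Mydgf and Fem1a), 1 rose and 0 fell, where 9.99% of all genes rose and 7.92% fell. Lrg1, for a secreted glycoprotein of the acute phase and next to Plin5, gave 11.64, 12.20 and 12.61 in the TFEB-injected livers, against 11.59, 11.61 and 11.64 in the not-injected livers (log2 change 0.54, limma adjusted p = 0.127). With an array left out its change was 0.31 to 0.79, and it passed without injected replicate 1 (limma, adjusted p = 0.00456). It was highest in injected replicate 3, like the 3 perilipin genes, 44.3% of all genes and 59.0% of all genes that rose. Tnfaip8l1 changed by 0.41 (limma, adjusted p = 0.0392) and was highest in injected replicate 1, at 9.71, with replicates 2 and 3 at 9.63 and 9.27, against 9.15, 9.11 and 9.12 in the not-injected livers. Its call was lost without any 1 array other than injected replicate 3 (limma, adjusted p up to 0.133). Hdgfl2, on the far side of Plin4, changed by -0.02 (limma, adjusted p = 0.828). Further out on that side Mpnd fell (-0.27 ± 0.06 SE, limma adjusted p = 0.0177), with its groups apart. Stap2, Sh3gl1 and Ubxn6 on that side, and Uhrf1 and Kdm4b beyond Plin3, did not pass.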
